A study of Mus musculus with 6 samples.

Results

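Npr3, Svep1, Shtn1, Sh3pxd2b, Npas3 and Pax6 are 6 genes whose transcripts were much higher in chemotherapy-resistant mouse leukemic blasts than in chemotherapy-sensitive ones, where they were scarce. They were selected on that measured difference in level between the groups, as rows of the deposited count table matched to these symbols through GENCODE M21, and are 6 of 35932 genes in the table and of 13414 genes tested; all 6 passed the low-count filter. The libraries were made from bulk RNA of bone marrow blasts labelled myeloid leukemic and MLL-AF9+, the genotype that both groups share, in which the fusion of Mll1 (Kmt2a) with Af9 (Mllt3) drives an acute myeloid leukemia. There were 3 libraries of resistant blasts, labelled as treated with Cytarabin+Doxorubicin, and 3 of sensitive blasts, labelled as given vehicule, so that resistance and drug exposure cannot be told apart. Mouse strain, age, dose, time of harvest, how the fusion was introduced and whether replicates came from separate animals are not given in the labels, so the spread between libraries may be technical.

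The 6 genes belong to unrelated families, and most are best known from tissues other than marrow. Npr3 encodes the natriuretic peptide clearance receptor, which binds the peptides and removes them, and Svep1 a large secreted matrix protein with sushi and EGF domains that binds integrin alpha-9/beta-1. Shtn1 encodes shootin1, which links actin flow to the adhesion molecule L1 in growing axons, and Sh3pxd2b encodes TKS4, a Src substrate and scaffold of podosomes, the actin-rich structures that digest matrix. Npas3 is a bHLH-PAS transcription factor of brain and lung development that pairs with ARNT, and Pax6 is the paired-domain and homeodomain factor of eye, brain and pancreatic islet.

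Library totals were 22206341 to 31856009 counts, and 3 counts in a library, taken as the floor, corresponded to 0.0945 to 0.137 CPM, the unit in which counts are set against the library total after TMM scaling. The 11 myeloid blast markers, among them Ptprc, Kit, Cd34 and Mpo, were all detected and summed to 3740 to 4430 CPM in resistant and 4790 to 5350 CPM in sensitive libraries. Of 13414 tested genes, edgeR's quasi-likelihood test called 39.2% at an adjusted p under 0.05: 2475 genes (18.5%) with more transcript in resistant than in sensitive blasts and 2785 (20.8%) with less. These p-values measure only the spread between these libraries. The 11 blast markers included 2 that were higher and 5 that were lower. The 6 red cell markers moved with the groups, the 5 tested ones all lower, with a sum of 0.158 to 1.55 CPM in resistant and 43.6 to 76.1 CPM in sensitive libraries; their part in the values below was not tested.

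The sequences upstream of the start sites are shown so that a reader can compare them base by base. The 6 genes share a direction because they were picked for it, and whether they share regulation was not tested. RefSeq promoter windows on GRCm38.p6 matched 5 of the 6 genes, Shtn1 being the one without an entry, and Pax6 had 2 starts, of which the upstream one is printed. Each line gives the 250 bases before the start, 5′ to 3′ on the gene's own strand. Capitals mark matches, on either strand, to the TATA box TATAAA, the CCAAT box, the GC box GGGCGG, the bHLH-PAS core ACGTG, the cAMP response element TGACGTCA and the MEIS core TGACAG. The windows lie at chr15:11907372-11907621 (minus strand) for Npr3, chr4:58206597-58206846 (minus) for Svep1, chr11:32347590-32347839 (plus) for Sh3pxd2b, chr12:53248182-53248431 (plus) for Npas3 and chr2:105668646-105668895 (plus) for Pax6.
Npr3: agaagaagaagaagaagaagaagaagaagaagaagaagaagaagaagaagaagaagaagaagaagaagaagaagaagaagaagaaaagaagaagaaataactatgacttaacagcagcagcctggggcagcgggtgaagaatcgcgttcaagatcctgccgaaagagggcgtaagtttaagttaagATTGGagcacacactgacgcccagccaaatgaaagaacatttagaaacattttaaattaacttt
Svep1: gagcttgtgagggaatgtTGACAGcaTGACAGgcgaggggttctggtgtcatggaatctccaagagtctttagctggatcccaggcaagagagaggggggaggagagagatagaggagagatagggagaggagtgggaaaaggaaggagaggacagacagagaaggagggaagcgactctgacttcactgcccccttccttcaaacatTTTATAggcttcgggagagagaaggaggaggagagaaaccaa
Sh3pxd2b: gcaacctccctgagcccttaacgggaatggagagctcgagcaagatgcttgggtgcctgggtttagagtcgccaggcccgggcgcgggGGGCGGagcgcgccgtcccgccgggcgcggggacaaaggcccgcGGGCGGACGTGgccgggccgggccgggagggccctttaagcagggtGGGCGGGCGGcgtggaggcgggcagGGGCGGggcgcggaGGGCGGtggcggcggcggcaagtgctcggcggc
Npas3: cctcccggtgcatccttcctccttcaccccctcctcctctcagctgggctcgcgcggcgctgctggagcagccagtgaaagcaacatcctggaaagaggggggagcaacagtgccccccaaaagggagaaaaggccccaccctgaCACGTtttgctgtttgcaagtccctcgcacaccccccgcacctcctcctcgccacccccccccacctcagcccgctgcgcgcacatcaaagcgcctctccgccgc
Pax6: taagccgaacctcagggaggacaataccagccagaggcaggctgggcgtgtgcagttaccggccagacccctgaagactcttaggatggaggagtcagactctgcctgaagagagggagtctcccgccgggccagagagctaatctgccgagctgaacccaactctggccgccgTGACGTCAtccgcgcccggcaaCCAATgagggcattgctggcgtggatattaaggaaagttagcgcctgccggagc

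The longest run of purines was 97 bases in the Npr3 window, which opened with a repeat, 26 bases in the Svep1 window, 15 in Npas3, 12 in Pax6 and 7 in Sh3pxd2b, against a median of 9 bases over 32851 windows. The run of Svep1 was longer than in 98.9% of all windows and that of Npas3 longer than in 90.9%. The Npr3 window held 1 CCAAT box and 6 CpG dinucleotides, the median of all windows. The Svep1 window held 3 CpG, 1 TATA box and 2 copies of the MEIS core, which are 2 bases apart. The Sh3pxd2b window was 77.6% G and C, with 34 CpG, more than in 96.5% of all windows, and held 6 GC boxes, 2 of which overlap, and 1 ACGTG. Npas3 and both Pax6 windows held 15 CpG each. Npas3 held 1 ACGTG, and the upstream Pax6 window held 1 cAMP response element and 1 CCAAT box. The other Pax6 window, which is not printed, held 1 ACGTG and 1 MEIS core. No motif occurred in all 5 printed windows. Among all windows, TATAAA was found in 12.4%, CCAAT in 33.8%, GGGCGG in 32.7%, ACGTG in 16.6%, TGACGTCA in 1.55% and TGACAG in 15.9%.

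Each of the 6 genes was higher in every resistant library than in any sensitive one. Among all tested genes the groups did not overlap in 52.4%, with resistant above sensitive in 25.2% and below it in 27.2%. Since the genes were picked for this contrast, their values are a description with no test. In bulk RNA, more cells that express a gene and more RNA per cell cannot be told apart.

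Npr3, the clearance receptor gene, had 145, 78 and 99 counts in resistant libraries and 2, 2 and 3 counts in sensitive libraries. These are 4.57, 3.55 and 3.86 CPM in resistant blasts, against 0.0688, 0.0784 and 0.0962 CPM in sensitive blasts. It was the gene of the 6 with no sensitive library above the floor. The ratio of summed levels was 49.7, with a 95% counting interval of 23.9 to 125, wide because only 7 counts stand on the sensitive side.

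Svep1, the matrix protein gene, had 25.6, 20.8 and 29.8 CPM in resistant libraries, against 0.654, 1.22 and 1.28 CPM in sensitive libraries. The sensitive values rest on 19, 31 and 40 counts, all above the floor. The ratio of summed levels was 24.4 (19.8 to 30.5). The lowest resistant library stood 16.2-fold above the highest sensitive one.

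Shtn1, the shootin1 gene, had 14.4, 8.92 and 9.32 CPM in resistant libraries and 0.241, 0.824 and 0.738 CPM in sensitive libraries. It had the widest spread among resistant libraries, with a coefficient of variation of 28.2% set by the high value of resistant library 1. The ratio of summed levels was 18.9 (14.3 to 25.6).

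Sh3pxd2b, the TKS4 gene, had 5.77, 6.28 and 5.07 CPM in resistant libraries, against 0.413, 0.471 and 0.128 CPM in sensitive libraries. Sensitive library 3, with 4 counts, was the lowest, although it was the highest sensitive library for Npr3, Svep1, Npas3 and Pax6. The ratio of summed levels was 17.4 (11.9 to 26.5).

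Npas3 had 5.01, 4.92 and 5.54 CPM in resistant libraries and 0.172, 0.314 and 0.513 CPM in sensitive libraries. Its resistant libraries were the closest together of the 6 genes, with a coefficient of variation of 6.52%, against 51.5% among the sensitive libraries. The ratio of summed levels was 15.2 (10.5 to 23).

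Pax6 had 3.66, 2.82 and 3.59 CPM in resistant libraries, against 0.206, 0.314 and 0.577 CPM in sensitive libraries. It had the smallest ratio of summed levels among the 6 genes, 9.12 (6.31 to 13.6). Its lowest resistant library stood 4.89-fold above its highest sensitive one.

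**Figure D1:**
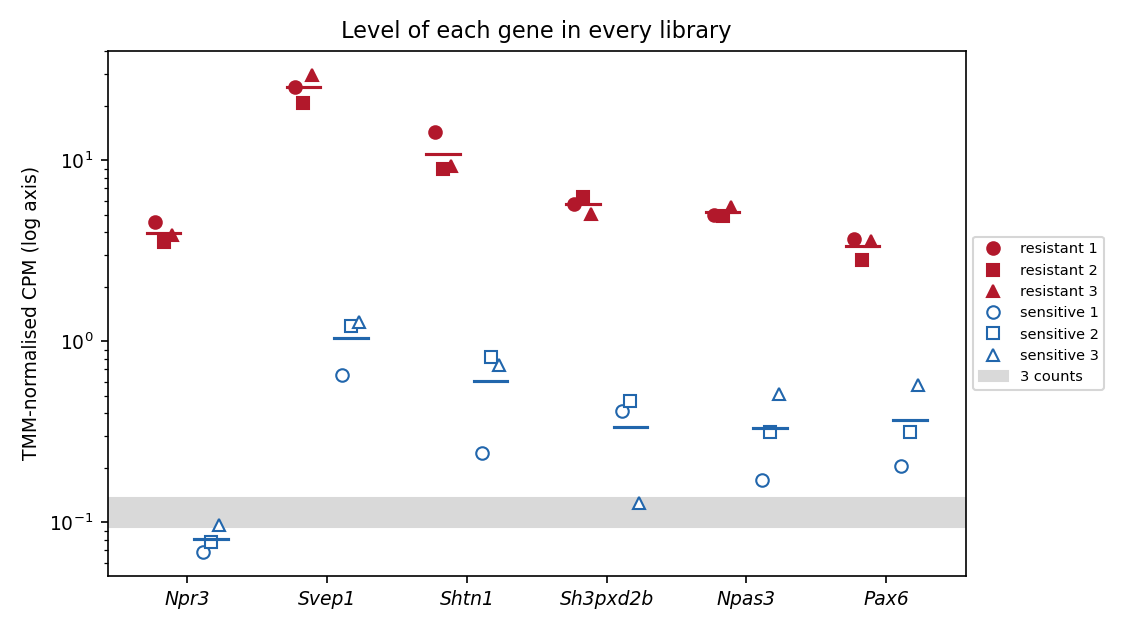
TMM-normalised CPM (log axis) of the 6 genes in each library, resistant in filled red and sensitive in open blue symbols, with bars at the group means (n = 3 each) and a grey band at the level of 3 counts (0.0945 to 0.137 CPM). The groups do not overlap for any of the 6 genes, and only Npr3 has all its sensitive libraries at or below the band.

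The transcripts were low in sensitive blasts, but not absent. For 5 genes all 3 sensitive libraries held more than 3 counts, and the exception was Npr3. Relative to resistant blasts, the summed level in sensitive blasts was 2.01% for Npr3 (95% counting interval 0.802% to 4.19%), 4.1% for Svep1 (3.28% to 5.06%), 5.28% for Shtn1 (3.9% to 7.01%), 5.74% for Sh3pxd2b (3.77% to 8.42%), 6.56% for Npas3 (4.34% to 9.57%) and 11% for Pax6 (7.35% to 15.9%). These intervals cover counting error only and leave out the spread between libraries, which in sensitive blasts was 17.1% (coefficient of variation) for Npr3, 32.9% for Svep1 and 51.5% to 54.3% for the other 4 genes. Whether the residual level differs between the genes was not tested.

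**Figure D2:**
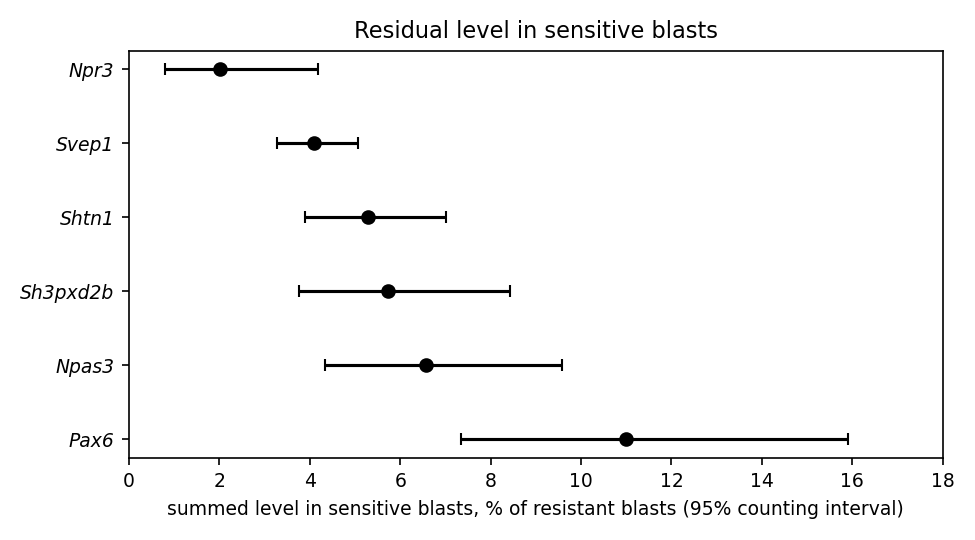
Summed level in sensitive blasts as a percentage of that in resistant blasts, with 95% counting intervals, for each gene. The values run from 2.01% for Npr3 to 11% for Pax6.

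The 6 genes together made up 59.1, 47.2 and 57.2 CPM in resistant libraries and 1.75, 3.22 and 3.34 CPM in sensitive libraries. Sensitive library 1 was the lowest sensitive library for 5 of the 6 genes and resistant library 2 the lowest resistant library for 5 of the 6. Sh3pxd2b was the exception both times, with resistant library 2 its highest.

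Per kilobase of exon, the order in resistant blasts was Shtn1, Svep1, Npas3, Sh3pxd2b, Npr3 and Pax6. Exon length was taken over all annotated transcripts of a gene, for Pax6 11694 bases over 26 transcripts. The order depends on that divisor, and which transcripts were present was not examined. Shtn1 averaged 1.76 ± 0.498 CPM per kb in resistant and 0.0973 ± 0.051 CPM per kb in sensitive blasts (SD, n = 3 each), and Svep1 1.58 ± 0.281 CPM per kb in resistant and 0.0652 ± 0.0214 CPM per kb in sensitive blasts. The resistant ranges of these neighbours overlapped (1.45 to 2.34 for Shtn1, 1.29 to 1.85 for Svep1). Npas3 stood lower, at 0.858 ± 0.056 CPM per kb in resistant and 0.0554 ± 0.0285 CPM per kb in sensitive blasts. Below it came Sh3pxd2b at 0.588 ± 0.0625 CPM per kb in resistant and 0.0347 ± 0.0189 CPM per kb in sensitive blasts, then Npr3 at 0.425 ± 0.0557 CPM per kb in resistant and 0.00864 ± 0.00148 CPM per kb in sensitive blasts. Pax6 closed the order at 0.287 ± 0.0396 CPM per kb in resistant and 0.0313 ± 0.0163 CPM per kb in sensitive blasts. With these exon lengths, the resistant ranges of neighbours from Svep1 down to Pax6 did not overlap.

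Among all tested genes, the fitted log2 ratio of resistant over sensitive ranked Npr3 at 4 (5.54), Svep1 at 7 (4.59), Shtn1 at 11 (4.19), Sh3pxd2b at 13 (4.10), Npas3 at 15 (3.92) and Pax6 at 31 (3.17). In the other direction, 83 genes had a log2 ratio at least as far below 0 as that of Pax6 above it, against 31 genes on the upper side.

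**Figure D3:**
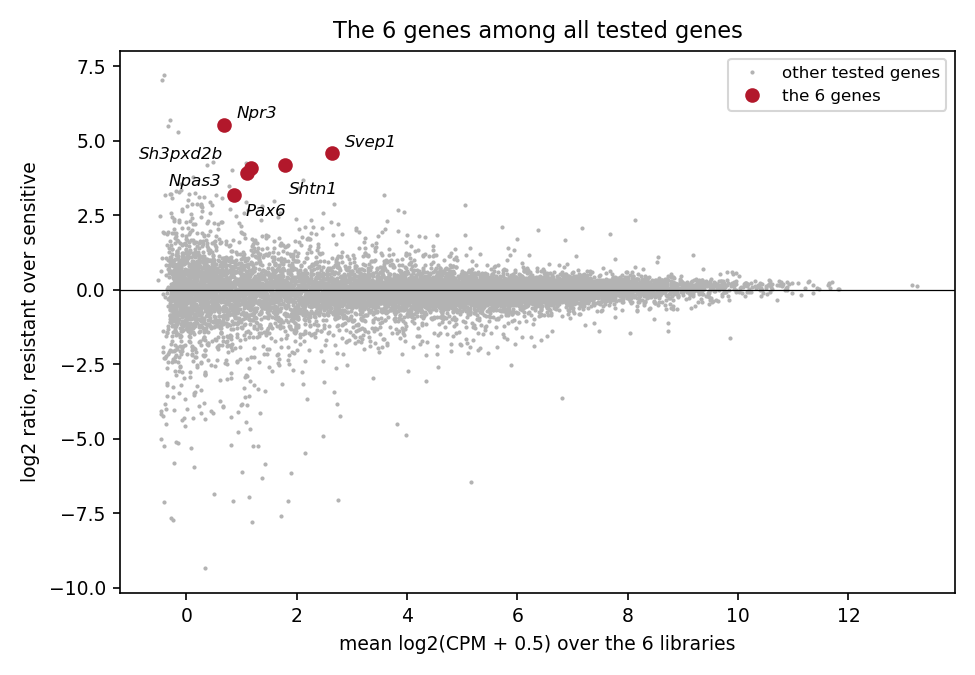
Log2 ratio of resistant over sensitive against mean log2(CPM + 0.5) for 13414 tested genes (grey), with the 6 genes in red. The 6 genes lie between 3.17 and 5.54 on the log2 scale, at low mean abundance.

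Likeness was measured as the Euclidean distance of log2(CPM + 0.5) over the 6 libraries, among 21162 named genes. These libraries also served to pick the 6 genes, so small distances follow in part from that choice and from similar levels. Svep1 was most like Tktl1, a transketolase-like gene (distance 0.416), which averaged 23.8 ± 1.19 CPM in resistant and 1.02 ± 0.502 CPM in sensitive blasts. Pax6 was most like Trim29 (distance 0.53; 3.47 ± 0.269 CPM in resistant and 0.386 ± 0.155 CPM in sensitive blasts), then Jag1, a Notch ligand gene, and Ank2, an ankyrin gene. Shtn1 was most like Gata3, a T-cell transcription factor gene (distance 1.01; 12.7 ± 1.28 CPM in resistant and 0.975 ± 0.389 CPM in sensitive blasts), then Asgr2 and Rbpms2.

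Npas3 was most like Jag1 (distance 0.868; 3.98 ± 0.726 CPM in resistant and 0.513 ± 0.0879 CPM in sensitive blasts), then Sh3pxd2b and Pax6. Sh3pxd2b was most like Npas3 (distance 0.943), then Jag1 and Cpeb1. Npr3 was most like the homeobox gene Vax1 (distance 0.956), then Pax6 and Npas3. After Tktl1, Svep1 was followed by Gata3 and Iqca at distances of 1.77 and 1.93. Jag1 was therefore among the 3 most alike genes of Sh3pxd2b, Npas3 and Pax6.

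Whether neighbours along the chromosome moved with each gene was asked of the 3 nearest protein-coding genes on each side in GENCODE M21. Of these 36 flanking genes, 23 were tested, 5 were higher, 6 lower and 12 did not pass, which is 47.8% called against 39.2% of all tested genes, with a median log2 ratio of -0.03. The 11 calls became 6 without sensitive library 1, 6 without sensitive library 2 and 7 without resistant library 1. Calls over all genes in these fits were 4280, 3656 and 4705, against 5260 with all libraries. A pair of direct neighbours stood out by size. Vax1, a homeobox gene of optic stalk and ventral forebrain that lies next to Shtn1, had 2.93, 2.46 and 2.42 CPM in resistant libraries and 0.0688, 0.118 and 0.192 CPM in sensitive libraries. It rose by 4.30 ± 0.34 SE on the log2 scale (edgeR adjusted p = 6.97e-06), close to the 4.19 of Shtn1, with groups that did not overlap. The sensitive values of Vax1 rest on 2, 3 and 6 counts.

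Akap6, an A-kinase anchoring protein gene next to Npas3, had 0.63, 0.592 and 0.936 CPM in resistant libraries and 0.0688, 0.118 and 0.0641 CPM in sensitive libraries, with at most 24 counts in any library. It rose by 3.07 ± 0.46 SE on the log2 scale (edgeR adjusted p = 0.000508). On the other side of Npas3, Egln3, a prolyl hydroxylase gene of the HIF pathway, fell to 31.9 ± 6.98 CPM in resistant blasts, against 58.6 ± 2.47 CPM in sensitive blasts (SD, n = 3 each; edgeR adjusted p = 0.000478).

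Upstream of Sh3pxd2b lies the alpha-globin locus. Hba-a2, an alpha-globin gene, had 0, 0.455 and 0.39 CPM in resistant libraries and 13.9, 23.2 and 18.4 CPM in sensitive libraries. Its log2 ratio was -6.15 ± 0.43 SE (edgeR adjusted p = 3.08e-06), opposite in direction to Sh3pxd2b, from which Hbq1a separates it. Hba-a2 is also a red cell marker, and the other tested ones fell too, among them Hbb-bs (log2 ratio -7.1), Hbb-bt (-6.94) and Alas2 (-4.57). Hba-a2 has a near-identical copy, Hba-a1, and how shared reads were counted is not given in the sources used here.

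**Figure D4:**
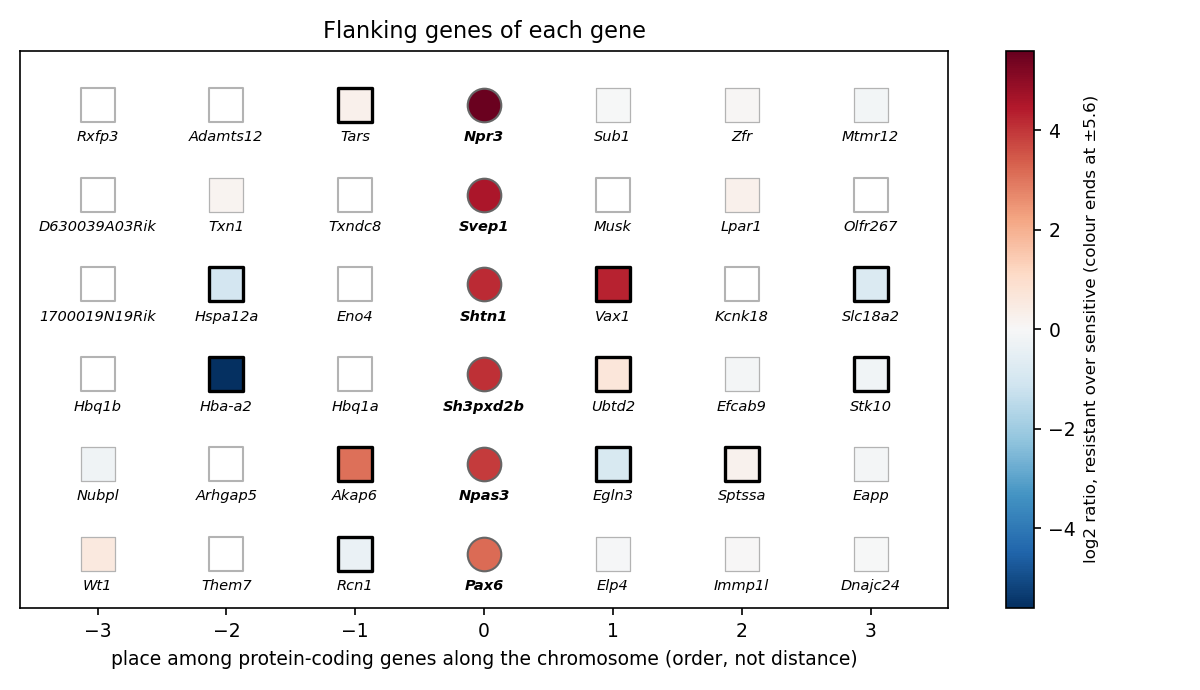
Log2 ratio of resistant over sensitive (colour) of the 3 protein-coding genes on each side of each gene (circles in the middle), by order along the chromosome; thick black frames mark genes past the edgeR test and empty squares genes that were not tested. Vax1 beside Shtn1 (4.30) and Akap6 beside Npas3 (3.07) are the strongly red neighbours, and Hba-a2 near Sh3pxd2b (-6.15, beyond the end of the colour scale) is the strongly blue one.

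Whether the counting used strand is not stated in the labels. In GENCODE M21 an opposite-strand gene shares exon bases with Npr3 (Gm5144, 321 bases), Svep1 (Gm26889, 2244 bases) and Npas3 (1700060O08Rik, 83 bases). These 3 have no row in the deposited counts, so how far their reads add to those of Npr3, Svep1 and Npas3 cannot be told. Pax6os1, an antisense gene at Pax6, shares 0 exon bases with it and had 1 count in resistant library 2 and 0 counts in the other libraries.

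The natriuretic peptide system was examined around Npr3. Its ligands were at or below detection: Nppb, Nppc and Ostn, which encodes osteocrin, a ligand of the clearance receptor, had 0 counts in all 6 libraries, which allows up to 0.0945 to 0.137 CPM a library, and Nppa had 1 count in the resistant and 2 counts in the sensitive libraries. Of 16 genes in the list, 7 were tested: 3 passed as higher, 1 as lower and 3 not at all (57.1% called against 39.2% of all tested genes; median log2 ratio -0.07). Npr1, the guanylyl cyclase receptor for ANP and BNP, had 5.39, 6.92 and 7.68 CPM in resistant libraries, against 2.13, 3.22 and 2.44 CPM in sensitive libraries. It rose by 1.36 ± 0.20 SE on the log2 scale (edgeR adjusted p = 0.00043), with no overlap of the groups. Npr2, the CNP receptor, averaged 0.372 ± 0.169 CPM in resistant and 0.66 ± 0.0749 CPM in sensitive blasts and did not pass (edgeR adjusted p = 0.126).

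Among the processing genes of that system, Furin, a proprotein convertase, fell to 38.4 ± 0.614 CPM in resistant blasts, against 56.2 ± 2.43 CPM in sensitive blasts (edgeR adjusted p = 9.89e-05). Ide, the insulin-degrading enzyme, which also cleaves natriuretic peptides, rose by 0.21 ± 0.05 SE on the log2 scale (edgeR adjusted p = 0.00817). Gnai3, an inhibitory G protein subunit of the kind Npr3 can couple to, rose by 0.18 ± 0.06 SE (edgeR adjusted p = 0.0307). The call of Gnai3 was lost without resistant library 1 (0.0771), resistant library 3 (0.0731), sensitive library 2 (0.115) or sensitive library 3 (0.13), and with library totals as the scaling (0.0569).

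Among partners of the Svep1 protein, the receptor subunit gene Itga9 was higher as well. Itga9 had 6.33, 6.69 and 9.36 CPM in resistant libraries and 2, 2.16 and 2.63 CPM in sensitive libraries, a rise of 1.72 ± 0.19 SE on the log2 scale (edgeR adjusted p = 8.08e-05). Itga4, a related integrin subunit of blood cells, rose by 0.38 ± 0.06 SE (edgeR adjusted p = 0.000767), and Itgb1, the beta subunit that both pair with, had a log2 ratio of 0.12 ± 0.06 SE (edgeR adjusted p = 0.144) and is named after its value was seen. Pear1, a platelet receptor that binds SVEP1, averaged 1.28 ± 0.0383 CPM in resistant and 1.36 ± 0.197 CPM in sensitive blasts (edgeR adjusted p = 0.812). Angpt1, the Tie2 ligand, fell by 0.32 ± 0.09 SE on the log2 scale (edgeR adjusted p = 0.0146), a call lost without resistant library 1 (0.0531) or sensitive library 1 (0.0656). Of 11 genes in this list 7 were tested, 2 were higher, 1 lower and 4 did not pass (42.9% called against 39.2% of all tested genes, median log2 ratio -0.08).

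Partners of shootin1 had small log2 ratios beside the 4.19 of Shtn1, and the adhesion partner went the other way. L1cam, the adhesion molecule it couples to, fell to 4.06 ± 0.585 CPM in resistant blasts, against 6.44 ± 0.402 CPM in sensitive blasts (log2 ratio -0.67 ± 0.15 SE, edgeR adjusted p = 0.00521). Cttn, the cortactin gene, had 0, 4 and 2 counts in resistant libraries and 6, 12 and 4 counts in sensitive libraries and was not tested. Pak1, the kinase that phosphorylates shootin1, rose by 0.21 ± 0.05 SE (edgeR adjusted p = 0.0108), a call lost without sensitive library 2 (0.0721). Pik3r1, a PI3K regulatory subunit gene, fell by 0.35 ± 0.07 SE (edgeR adjusted p = 0.0026).

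Kif20b, a kinesin that binds shootin1, fell by 0.24 ± 0.08 SE (edgeR adjusted p = 0.0334). Its call was lost without resistant library 2 (0.0805), resistant library 3 (0.116), sensitive library 1 (0.103), sensitive library 2 (0.104) or sensitive library 3 (0.0509). Of 12 genes in the shootin1 list 9 were tested, 1 was higher, 3 lower and 5 did not pass (44.4% called against 39.2% of all tested genes, median log2 ratio -0.06). Without sensitive library 2 the number called was 2, while calls over all genes fell from 5260 to 3656.

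Several podosome genes were lower in resistant blasts, opposite to Sh3pxd2b. Of 31 genes listed around Sh3pxd2b, 25 were tested, 3 were higher, 11 lower and 11 did not pass (56% called against 39.2% of all tested genes), and the median log2 ratio was -0.17, against -0.0052 over all tested genes. Without sensitive library 2 the number called was 8, while calls over all genes fell from 5260 to 3656. Sh3pxd2a, which encodes TKS5, the only close relative of TKS4, had 13.2, 13.7 and 13.1 CPM in resistant libraries and 13.2, 12.2 and 13.2 CPM in sensitive libraries (log2 ratio 0.05 ± 0.09 SE, edgeR adjusted p = 0.699).

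Among the podosome genes, Gsn, which encodes the actin-severing protein gelsolin, fell to 19.1 ± 2.16 CPM in resistant blasts, against 76.5 ± 3.15 CPM in sensitive blasts (edgeR adjusted p = 1.47e-07). Ptk2b, the adhesion kinase PYK2, fell by 0.69 ± 0.06 SE on the log2 scale (edgeR adjusted p = 1.18e-05). Ncf1, the phagocyte oxidase organiser p47phox, whose PX and SH3 layout TKS4 shares, fell to 275 ± 23.5 CPM in resistant blasts, against 417 ± 10.4 CPM in sensitive blasts (edgeR adjusted p = 5.48e-05). Mmp9, a matrix metalloproteinase gene, fell by 1.44 ± 0.20 SE (edgeR adjusted p = 0.000391). Without sensitive library 2, the lower genes Was (edgeR adjusted p = 0.0543), Wipf1 (0.0651), Nck1 (0.0609) and Vcl (0.08) and the higher genes Arpc2 (0.0839) and Src (0.053) no longer passed. These 6 are named for that, after their values were seen, and all except Arpc2 also lost their call without at least 1 other library.

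Around Npas3, the called genes in a list of its bHLH-PAS class and of coactivators went in both directions. Of 18 listed, 13 were tested, 2 were higher, 4 lower and 7 did not pass (46.2% called against 39.2% of all tested genes, median log2 ratio -0.06). Its dimer partner gene Arnt was at 53.1, 50.2 and 52.3 CPM in resistant libraries and 57.4, 52 and 52.3 CPM in sensitive libraries (edgeR adjusted p = 0.532), and Arnt2 had 1 count in the resistant and 2 counts in the sensitive libraries. Epas1, which encodes HIF-2 alpha, fell to 0.683 ± 0.152 CPM in resistant blasts, against 3.4 ± 0.352 CPM in sensitive blasts (edgeR adjusted p = 3.94e-05), and Hif1a fell by 0.46 ± 0.08 SE on the log2 scale (edgeR adjusted p = 0.00122). Clock, the circadian activator, rose by 0.61 ± 0.11 SE (edgeR adjusted p = 0.00132), and Ahrr, the repressor of the aryl hydrocarbon receptor, rose by 1.16 ± 0.22 SE (edgeR adjusted p = 0.00215).

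In the paired-box family, Pax8 was the one relative with enough counts to test, and it went the other way from Pax6. It fell to 2.08 ± 0.292 CPM in resistant blasts, against 6.25 ± 0.562 CPM in sensitive blasts (log2 ratio -1.59 ± 0.17 SE, edgeR adjusted p = 5.02e-05). The other 7 family genes were not tested, and Pax1 and Pax4 had 0 counts in all 6 libraries.

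Of 20 eye, brain and islet regulators linked to Pax6, 16 had too few counts to test, among them Sox2, Otx2, Neurod1 and Isl1. Meis2, a TALE homeobox gene, had 13.6, 13.1 and 13.2 CPM in resistant libraries, against 4.13, 5.26 and 5.74 CPM in sensitive libraries. It rose by 1.40 ± 0.13 SE on the log2 scale (edgeR adjusted p = 2.23e-05), the 1 call among 4 tested genes (25% against 39.2% of all tested genes, median log2 ratio 0.12). Without resistant library 2, Eya1 passed as well (edgeR adjusted p = 0.0293), so that 2 genes were called.

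**Figure D5:**
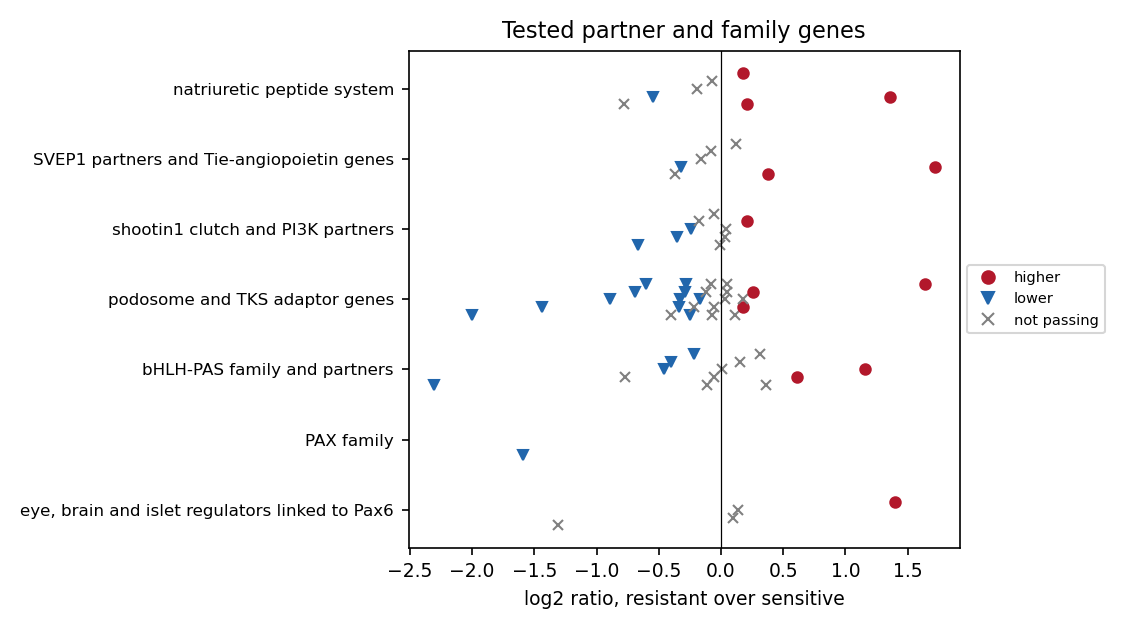
Log2 ratio of resistant over sensitive for the tested partner and family genes of the 6 genes, by list, with red circles for higher, blue triangles for lower and grey crosses for genes that did not pass the edgeR test. Vertical offsets within a list only separate points. Lower genes outnumber higher ones in the podosome list (11 against 3).

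Markers of other cell types were examined, but no marker list covered eye, islet or lung. The part of other cell types in the values above was not tested. At most 3 counts a library on average were found for 9 of 10 neural, 5 of 10 stroma and 4 of 8 endothelial markers. Of 10 neural markers, 9 averaged at most 3 counts a library, Map2 and Syt1 had 0 counts in all 6 libraries, and the list summed to 6.9 to 10.6 CPM in resistant and 1.99 to 2.89 CPM in sensitive libraries. Nearly all of this was Nes, the nestin gene, with 6.78, 7.6 and 10.4 CPM in resistant libraries and 2.72, 2.08 and 1.8 CPM in sensitive libraries (edgeR adjusted p = 6.67e-05). The 10 stroma and fibroblast markers summed to 33.6 to 39.4 CPM in resistant and 43.2 to 53.6 CPM in sensitive libraries, mostly Pdgfrb, with Lum at 0 counts in all 6 libraries and Col1a2, Col3a1 and Dcn averaging at most 3 counts a library. Acta2 averaged 0.959 CPM in resistant and 0.81 CPM in sensitive blasts, and Col1a1 0.429 and 0.447 CPM. The 8 endothelial markers summed to 50.6 to 60.1 CPM in resistant and 152 to 188 CPM in sensitive libraries, mostly Pecam1. Emcn had 0 counts in all 6 libraries, and Cdh5 and Kdr averaged at most 3 counts a library. Flt1 averaged 4.48 ± 0.248 CPM in resistant and 9.85 ± 0.742 CPM in sensitive blasts, and Vwf 2.49 ± 0.032 and 2.71 ± 0.919 CPM. Megakaryocyte markers summed to 5.89 to 7.03 CPM in resistant and 9.49 to 10.6 CPM in sensitive libraries, and B and T lymphocyte markers to 40.4 to 43 CPM in resistant and 41.6 to 43.6 CPM in sensitive libraries.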

How the data were processed

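Total RNA of 6 libraries was sequenced, 3 of resistant and 3 of sensitive MLL-AF9 blasts. The authors deposited whole-number counts per Ensembl gene; the submitters' processing notes name TopHat2, RSEM and mm9, without roles or versions. The sources used here give no annotation, strand setting or handling of shared reads. Columns were matched to samples by title and 0 columns were left unused. GENCODE M21 (GRCm38), a later build, served for names, gene order and exon length only; promoter windows are RefSeq's on GRCm38.p6.

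After filterByExpr and TMM scaling, the counts were tested with edgeR 4.0.16 (quasi-likelihood, group alone, R 4.3.3) with Benjamini-Hochberg adjustment over 13414 genes. The step was tested on simulated data. Ratios of summed counts carry exact 95% intervals, which cover counting error only. They take the whole numbers as direct read counts; the sources used here do not say whether these are rounded RSEM estimates, for which the intervals would be approximate. Alternatives were other scalings and filters, DESeq2 1.42.0, limma-voom 3.58.1, a replicate block and each library left out.

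The 6 genes and the lists were chosen with earlier results of these data known. Genes were named by a fixed rule: up to 4 calls with the smallest adjusted p per list, direct relatives and partners, and the 3 most alike genes. Libraries of a group differed by more than counting noise (chi-square per degree of freedom 3.92 to 13.6), so none was treated as a copy of another; this does not show that they come from separate animals.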

Additional observations from a re-analysis of the deposited data

How the results depend on the processing

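The log2 ratios of the 6 genes kept their direction under 15 alternatives each. The genes were picked for this contrast and their groups did not overlap, so the kept direction is no test of it. Of 90 values, 80 moved by less than 1 SD between libraries and 10 by more. With a prior count of 2 the ratio was 4.72 for Npr3, the gene with 7 sensitive counts, and 3.68 for Npas3, and limma-voom gave 5.36 for Npr3. Leaving out 1 library at a time gave 5.43 to 5.68 for Npr3, 4.34 to 4.78 for Svep1, 3.81 to 4.45 for Shtn1, 3.68 to 4.39 for Sh3pxd2b, 3.6 to 4.4 for Npas3 and 2.88 to 3.68 for Pax6.

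Over all genes, leaving out 1 library gave 3656 to 5232 calls, against 5260 with all. Among the lists these fits gave 6 to 10 flanking genes, 8 to 13 podosome genes, 2 to 4 shootin1 genes and 1 to 2 eye, brain and islet regulators. At an adjusted p of 0.01, 8 podosome and 2 shootin1 genes were called, against 14 and 4 at 0.05. Over all tested genes, 23.4% were called at 0.01, against 39.2% at 0.05. With limma-voom, and with no low-count filter, 2 eye, brain and islet regulators were called, Maf being the added one. With 1 flanking gene on each side in place of 3, 6 were called out of fewer genes: Tars, Vax1, Ubtd2, Akap6, Egln3 and Rcn1. Sub1 and Elp4 were the tested ones that did not pass, so the lower number is not a lower share. The cause of the other moves was not tested.

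Libraries that share a replicate number did not deviate together (correlations of -0.0863 to 0.0368), so the number was not taken as a pairing. With it as a block, 5321 genes were called, and Ubtd2, a flanking gene of Sh3pxd2b, was no longer called (edgeR adjusted p = 0.053), as also without each library other than resistant library 2 (0.0526 to 0.0982). Counts of 2 to 40 a library limit the sensitive levels of the 6 genes.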
